A study of Manihot esculenta with 3 samples.

Results

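The transcripts described here are those of the genes that reached 1000 FPKM or more in every library of a cassava leaf. FPKM counts the sequenced fragments of a gene relative to the length of its transcript and to the size of the library, so that genes of different length can be set side by side. By this rule 85 of 33033 listed genes were chosen, which was 0.257% of them. Because the rule used the values of all 3 libraries, the levels below describe the genes chosen and are not tested. Leaves came from cassava (Manihot esculenta) cultivar TME 7 at 7.5 weeks of age, with no treatment or contrasting genotype named in the labels. The 3 replicate libraries formed 1 group, and each was made from polyadenylated RNA of the third or the fourth fully expanded leaf. The labels do not say whether the libraries came from separate plants, so the spread between them may be technical.

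A fully expanded leaf exports sugar made by photosynthesis, and its messenger RNA pool is known in many land plants to be uneven. Nuclear transcripts for the small subunit of Rubisco, for light-harvesting proteins and for other parts of the chloroplast are typically among the most abundant, and several of these proteins are encoded by gene families whose copies may lie side by side. Chloroplast-encoded messages mostly lack the stable poly(A) tail on which such libraries depend. The deposited table gives identifiers without gene names, and 0 of 33033 identifiers matched the gene table used for look-up, so neither a function nor a leaf marker can be assigned to any gene below. The genes are given by identifier, which holds the chromosome number and a number that increases along it.

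The abundant genes held close to the same part of the transcript pool in each library. In replicates 1, 2 and 3 they summed to 291111, 264052 and 278145 FPKM, out of 915718, 915236 and 952243 FPKM for all listed genes. These sums were 31.8%, 28.9% and 29.2% of all FPKM, or 29.95% ± 1.6 (SD, n = 3). A share of summed FPKM counts transcripts and not sequenced fragments, since long genes yield more fragments per transcript. The median abundant gene averaged 2171 FPKM, against 4.41 FPKM for the median of all listed genes. Within the 85 genes the highest mean was 24.2 times the lowest.

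The pool was uneven among the abundant genes as well. The 10 highest held 38.5% ± 4.3 of the FPKM of all 85, and the 20 highest held 53.3% ± 2.3 (SD, n = 3). Of the 85, 18 genes were enough for 50% of it. By mean level, 3 genes averaged 10000 FPKM or more, 8 averaged 5000 or more and 48 averaged 2000 or more. Counted by the lowest library instead of the mean, 2 genes reached 10000 FPKM, 7 reached 5000 and 37 reached 2000. Below the tenth gene the levels declined in small steps, and the mean of each gene was at most 1.07 times that of the next.

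**Figure D1:**
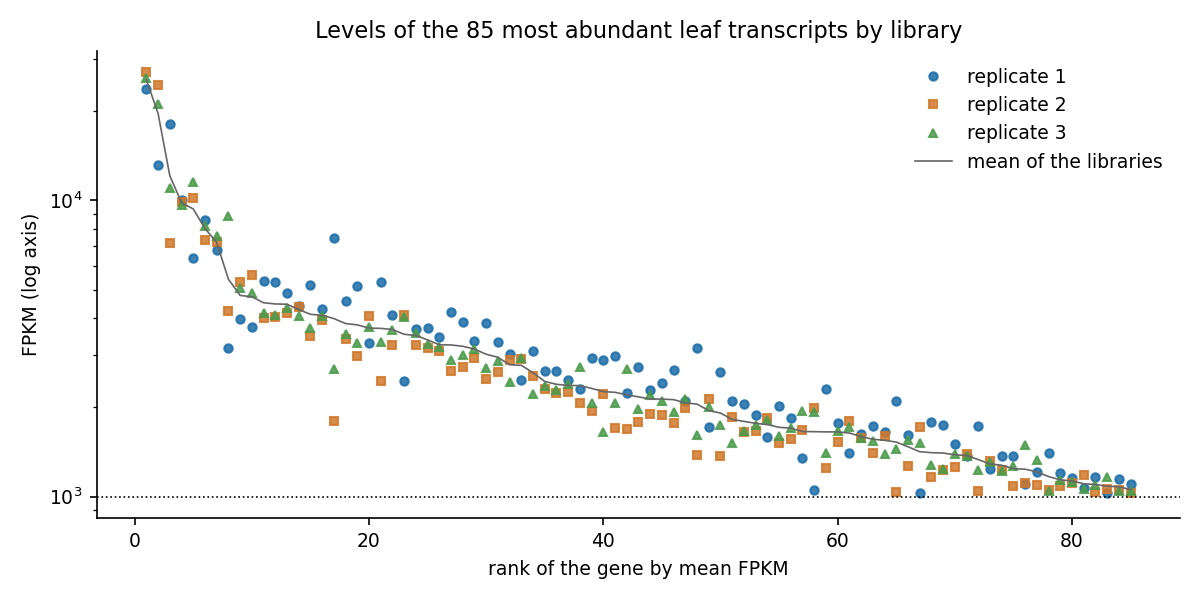
FPKM (log axis) of each of the 85 genes, ordered by mean level, with a symbol for each replicate, a line for the mean and a dotted line at the 1000 FPKM threshold. The first 3 genes average 12100 FPKM or more, and from the tenth gene on the means decline gradually to 1057 FPKM.

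The highest gene, Manes.01G011500.v6.1 on chromosome 1, had 23681, 27114 and 25791 FPKM in replicates 1, 2 and 3. It was the highest gene of every library and varied by a factor of 1.14 between them. Manes.05G137400.v6.1, on chromosome 5, had 13188, 24482 and 21172 FPKM in replicates 1, 2 and 3. Among all listed genes it ranked 2 in replicates 2 and 3, and its level in replicate 1, at rank 3, was 0.578 times the mean of the other libraries. The third gene by mean, Manes.15G086700.v6.1 on chromosome 15, went the other way. Its level was 18117, 7204 and 10978 FPKM in replicates 1, 2 and 3, so it ranked 2 in replicate 1 but 7 and 6 in replicates 2 and 3. The order of the second and the third gene therefore differed between libraries, while the lead of the first did not.

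Next came 4 genes whose means lay between 7211 and 9825 FPKM. Manes.17G066800.v6.1, on chromosome 17, was at 10005, 9841 and 9627 FPKM in replicates 1, 2 and 3. It was the steadiest of the 10 highest, with a highest library only 1.04 times the lowest. Manes.04G078000.v6.1, on chromosome 4, had 6379, 10168 and 11505 FPKM in replicates 1, 2 and 3, a difference of 1.80-fold with replicate 1 the lowest. Manes.15G167500.v6.1, on chromosome 15, had 8585, 7319 and 8198 FPKM in the same libraries. Manes.03G123800.v6.1, on chromosome 3, had 6822, 7258 and 7551 FPKM. The last pair differed between libraries by factors of 1.17 and 1.11, which is less than the step from either to the eighth gene.

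The remaining 3 of the 10 highest were more variable or closely spaced. Manes.S005600.v6.1, whose identifier has S in place of a chromosome number, stood at 3175, 4235 and 8839 FPKM in replicates 1, 2 and 3. Its replicate 3 value was more than the other values combined, and it ranked 30, 11 and 8 in the 3 libraries. In replicate 1 its level equalled 2 times 1587.71 FPKM, a value held by a further 2 genes of that library, and in replicate 2 it equalled 3 times 1411.69 FPKM, again held by a further 2 genes. In replicate 3 it equalled 3 times 2946.29 FPKM, a value that only 1 gene held, Manes.18G098500.v6.1. That gene, picked after its values were seen, was at 1411.69 FPKM in replicate 2 and at 0 in replicate 1. Such steps occur where few fragments are divided by a short usable length, but the number of fragments behind the values is not in the table, and whether this gene rests on few of them was not tested. No other abundant gene lay at 2 to 5 times a shared value, and 0 of the 85 held exactly the value of another gene. Some other abundant genes lay at such a multiple of a value held by 1 gene, in a single library each. Manes.05G142000.v6.1, on chromosome 5, had 3974, 5291 and 5060 FPKM in replicates 1, 2 and 3. Manes.17G066700.v6.1, on chromosome 17, had 3724, 5588 and 4871 FPKM. These last 2 genes differed in mean by a factor of 1.01, less than their spread between libraries.

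Between libraries the abundant genes varied about as much as all genes listed at 1 FPKM or more in every library. The highest library of a gene was a median of 1.26 times the lowest, and in 60 of the 85 genes it was at most 1.5 times. The SD of log2 FPKM over the 3 libraries had a median of 0.18 and ran from 0.014 to 1.06. Without replicate 1 the median was 0.088 over the genes that both other libraries listed at 1000 FPKM or more. Over all 3 libraries the SD was under 0.1 in 22 of the 85 genes, between 0.1 and 0.3 in 38, and 0.3 or more in 25. For comparison, the median SD was 0.20 among the 66 genes whose lowest library lay at 500 to under 1000 FPKM. It was also 0.20 among the 20382 genes that all libraries listed at 1 FPKM or more. The upper quartile of the SD was 0.32 in the 85 genes and 0.33 in the 20382. For the counts within 1.5-fold and by SD, no share over all genes is given. Requiring a high value in every library leaves out genes that are high in some libraries only, so a smaller spread among the genes chosen is partly set by the rule. Among the 85 genes the higher ones were not the steadier: the median SD was 0.26 for the 10 highest and 0.17 for the other 75.

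The steadiest gene was Manes.15G169800.v6.1, on chromosome 15, with 1367, 1392 and 1372 FPKM in replicates 1, 2 and 3. Its SD was 0.969% of its mean of 1377 FPKM (n = 3). Manes.14G079800.v6.1, on chromosome 14, was nearly as even, at 1628, 1579 and 1578 FPKM in replicates 1, 2 and 3. Manes.02G096900.v6.1, on chromosome 2, averaged 1129 ± 24 FPKM, and Manes.03G116700.v6.1, on chromosome 3, averaged 1289 ± 45 FPKM (SD, n = 3 each). With Manes.17G066800.v6.1 these made up the 5 genes of smallest log2 SD, and 4 of the 5 had means between 1129 and 1595 FPKM, in the lower part of the set.

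Of the 85 genes 6, or 7.06%, differed by more than 2-fold between their highest and lowest library. The same was found in 9.39% of the 20382 genes that all libraries listed at 1 FPKM or more. Among the 66 genes whose lowest library lay at 500 to under 1000 FPKM it was found in 3, or 4.55%. With the abundant genes chosen anew on the remaining libraries, their number over 2-fold was 2 without replicate 1, 2 without replicate 2 and 5 without replicate 3. Manes.03G110500.v6.1, on chromosome 3, varied most, with 7489, 1795 and 2686 FPKM in replicates 1, 2 and 3. Its replicate 1 value was 3.34 times the mean of the other libraries, and it ranked 6 in replicate 1 but 49 and 37 in replicates 2 and 3. Manes.16G030000.v6.1, on chromosome 16, had 3162 FPKM in replicate 1 against 1384 and 1609 FPKM in replicates 2 and 3. Manes.04G102800.v6.1, on chromosome 4, had 5300 FPKM in replicate 1 against 2464 and 3325 FPKM in replicates 2 and 3. Manes.06G074700.v6.1, on chromosome 6, had 2106 FPKM in replicate 1 against 1035 and 1443 FPKM in replicates 2 and 3. In these 4 genes and in Manes.15G086700.v6.1 replicate 1 was the highest and replicate 2 the lowest library. The exception was Manes.S005600.v6.1, which was lowest in replicate 1 and highest in replicate 3. With 3 libraries of 1 group, none of these contrasts has a replicate of its own.

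**Figure D2:**
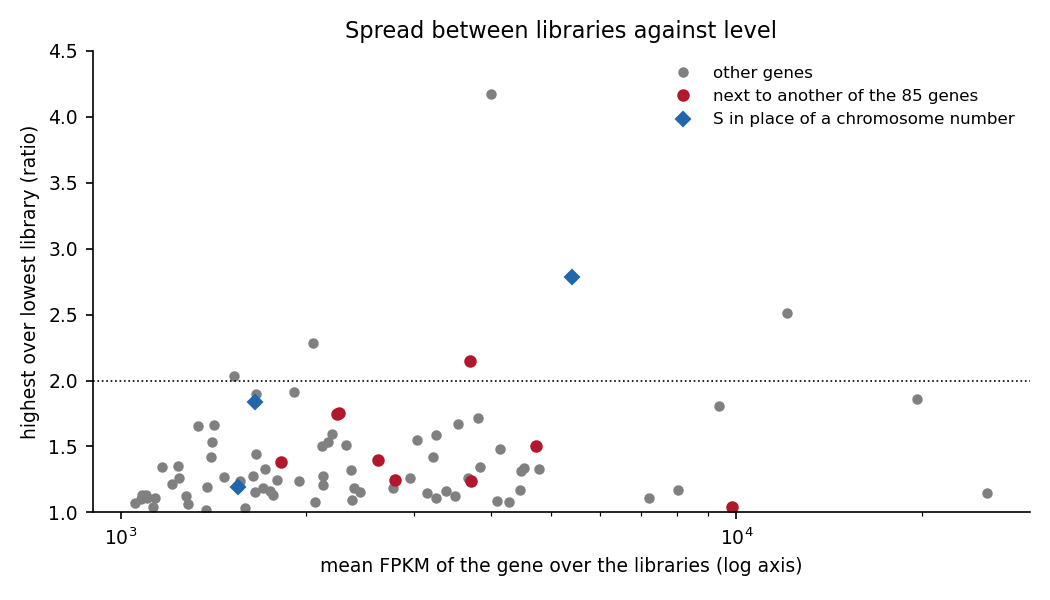
Ratio of the highest to the lowest library (vertical axis) against mean FPKM (log axis) for each of the 85 genes, with a dotted line at 2-fold, red points for genes next to another of the 85 and blue diamonds for S genes, which carry no chromosome number. The 6 genes above the line have means from 1528 to 12100 FPKM.

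Replicate 1 stood at the top of most abundant genes. It was the highest library in 60 of the 85 genes, or 70.6%, against 14 for replicate 2 and 11 for replicate 3. Among the 20382 genes that all libraries listed at 1 FPKM or more, replicate 1 was the highest in 40.9%, replicate 2 in 35.0% and replicate 3 in 24.1%. Among the 66 genes whose lowest library lay at 500 to under 1000 FPKM, replicate 1 was the highest in 25, or 37.9%, and the lowest in 33. The log2 ratio of replicate 1 to the mean of the other libraries had a median of 0.16 in the 85 genes and of -0.070 in those 66, while over all 20382 genes it was -0.0025. Both sets are cut on the lowest library, so a gene low in replicate 1 alone can fall out of the 85 and into the 66. The contrast between these sets is therefore partly set by the rule. Among the 100 genes that averaged 1000 FPKM or more and were above 0 in every library, the median ratio was 0.16. Replicate 1 was the highest in 67 of these 100. Since each gene is counted in the same 3 libraries, these shares describe 1 library of 3 and carry no replicate check. Nothing in the labels tells replicate 1 from the other libraries, and what sets its values apart was not tested.

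The 10 highest genes differed in direction from the rest of the abundant set. Of the 10 highest genes, 7 were lowest and 3 were highest in replicate 1, and they held 10.7%, 11.9% and 11.9% of all FPKM in replicates 1, 2 and 3. Of the 75 genes ranked 11 to 85, 57 were highest and 13 lowest in replicate 1. Together these held 21.1%, 17.0% and 17.3% of all FPKM in the same libraries. The larger share of the abundant genes in replicate 1 therefore came from the genes below the 10 highest. A cut at 2000 FPKM in every library does not separate these groups, since its 37 genes include all of the 10 highest. Replicate 1 was the highest in 26 of the 37, or 70.3%. FPKM values of a library share a common total, so a larger share of some genes leaves less for the rest.

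**Figure D3:**
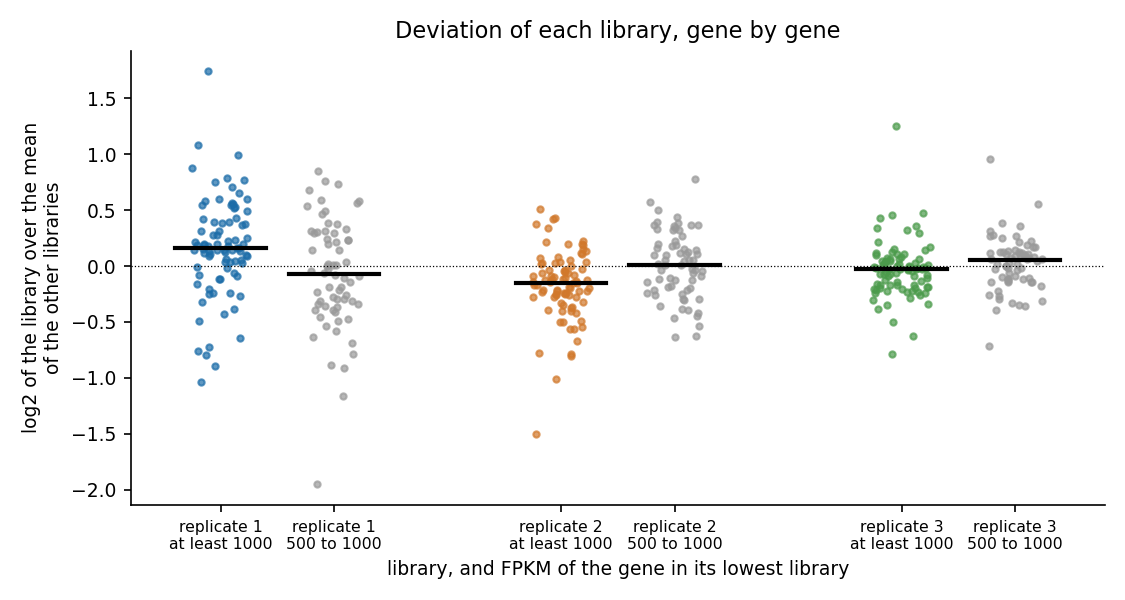
Log2 ratio of each library to the mean of the other libraries, with a point per gene and a bar at the median, for the 85 genes that all libraries listed at 1000 FPKM or more (coloured) and the 66 genes whose lowest library lies at 500 to under 1000 FPKM (grey). The median for replicate 1 is 0.16 in the coloured points and -0.070 in the grey ones, and for replicate 2 it is -0.15 and 0.014.

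Replicates 2 and 3 resembled each other. Their values lay within 1.2-fold of each other in 71 of the 85 genes, against 44 for replicates 1 and 3 and 38 for replicates 1 and 2. Replicate 1 was either the highest or the lowest library in 80 genes, or 94.1%. This also held for 81.8% of the 20382 genes that all libraries listed at 1 FPKM or more. It held for 87.9% of the 66 genes whose lowest library lay at 500 to under 1000 FPKM. The commonest order, found in 49 of the 85 genes, was replicate 1 above replicate 3 above replicate 2. In 13 genes the order was replicate 2, 3, 1 from the top, in 11 it was 1, 2, 3 and in 7 it was 3, 2, 1. For these orders and for the counts within 1.2-fold, no share over all genes is given. The log2 ratio of a library to the mean of the others, sign ignored, can be compared. Its median was 0.25, 0.22 and 0.12 for replicates 1, 2 and 3 in the 85 genes. Over the 20382 genes it was 0.27, 0.21 and 0.14, so this pattern was not particular to the 85.

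Some genes moved far in rank. The median gene covered 10 ranks between its best and its worst library, 24 genes covered at most 5 and 7 covered more than 30. The rule itself bounds the ranks, since only 101, 98 and 104 genes reached 1000 FPKM in replicates 1, 2 and 3. The lowest rank of any abundant gene was 100. Ranks count all listed genes, including Manes.13G092200.v6.1 and Manes.06G010900.v6.1, a pair picked after its values were seen. Both were at 16956 FPKM in replicate 3 and at 0 in replicates 1 and 2. Abundant genes below that level therefore rank lower in replicate 3 than they would without the pair. Manes.01G011500.v6.1 at rank 1 and Manes.12G097200.v6.1 at rank 17 were the 2 genes with the same rank in all libraries. The widest span belonged to Manes.10G027600.v6.1, on chromosome 10, with 1051 FPKM and rank 96 in replicate 1, 1993 FPKM and rank 41 in replicate 2, and 1925 FPKM and rank 53 in replicate 3. These last 2 genes were picked after their values were seen. When the libraries were ranked separately, 7 genes were in the 10 highest of each, 14 in the 20 highest and 41 in the 50 highest. All of these common genes belonged to the 85 by construction, since more than 50 genes of each library reached the threshold.

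Reaching 1000 FPKM in every library was the stricter of several readings of abundance. In at least 1 library 118 genes reached it, and the 85 were 72.0% of these. Another 15 genes reached it in 2 libraries and 18 in 1 library, of which 11 did so in replicate 1. Of the 33 genes left out, 6 were listed at exactly 0 in a library, whereas by the rule none of the 85 was. Averaged over libraries 103 genes reached 1000 FPKM, so 18 genes of that mean were left out. Among them Manes.13G092200.v6.1 and Manes.06G010900.v6.1 were listed at 16956 FPKM in replicate 3 and at 0 in replicates 1 and 2. By mean alone, 5652 FPKM, this pair, picked after its values were seen, would stand among the 10 highest.

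Just inside the threshold, the smallest lowest-library values were 1025 FPKM for Manes.15G039800.v6.1, 1028 FPKM for Manes.03G013900.v6.1, 1029 FPKM for Manes.04G096300.v6.1, and 1035 FPKM for both Manes.06G074700.v6.1 and Manes.15G123100.v6.1. Just outside it were Manes.08G008000.v6.1 at 988 FPKM, Manes.04G124600.v6.1 and Manes.01G250100.v6.1 at 984 FPKM, Manes.15G145400.v6.1 at 971 FPKM and Manes.03G113300.v6.1 at 964 FPKM. All 5 genes just outside averaged over 1000 FPKM, from 1009 to 1176. The border thus ran through closely spaced levels and did not fall in a gap.

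By their identifiers, 82 of the abundant genes lay on numbered chromosomes, and every one of the 18 carried at least 1. Chromosome 15 had the most, with 11 abundant among 1931 listed genes, followed by chromosome 5 with 9 among 2085. Per 1000 listed genes this was 5.70 on chromosome 15 and 4.32 on chromosome 5, with 4.81 on chromosome 17, where 6 of 1247 genes were abundant. Chromosomes 9, 10 and 11 had 1 each, or 0.529, 0.650 and 0.604 per 1000. These are small counts, and no test of unevenness between chromosomes was made.

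The abundant genes of chromosome 5 held 4.42% ± 0.47 of all FPKM, those of chromosome 15 held 4.12% ± 0.86 and those of chromosome 1 held 3.87% ± 0.15 (SD, n = 3 each). On chromosome 1 most of it was the single gene Manes.01G011500.v6.1, with 2.75% ± 0.19 of all FPKM. On chromosome 5 Manes.05G137400.v6.1 held 2.11% ± 0.62 (SD, n = 3). A few genes could thus dominate a chromosome: on chromosome 17 the 6 abundant genes held 51.8% of the FPKM of all its listed genes, on chromosome 5 the 9 held 48.6% and on chromosome 15 the 11 held 48.3%. On chromosome 11 the corresponding share was 4.38%, from Manes.11G038100.v6.1 alone, a gene named after its value was seen.

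**Figure D4:**
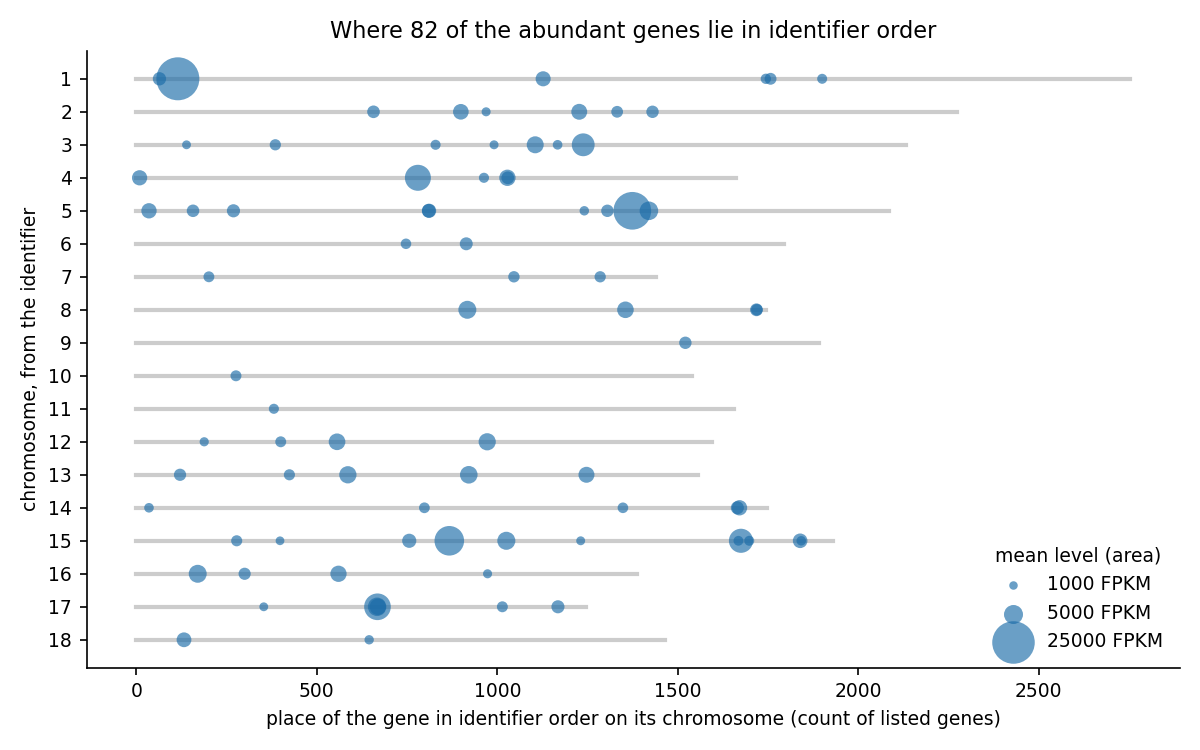
Place of 82 abundant genes in identifier order on the 18 chromosomes, with a grey line as long as the number of listed genes and a disc whose area is proportional to mean FPKM. Chromosomes 5 and 15 carry 9 and 11 genes, and chromosomes 9, 10 and 11 carry 1 each. Discs of neighbouring genes overlap on chromosomes 4, 5, 8 and 17, and discs of genes further apart can overlap as well.

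Along the chromosomes the abundant genes were spread out. With each chromosome cut into 5 equal parts by gene order, the first to the last part held 16, 14, 23, 15 and 14 of the 82 genes. Each part held between 6373 and 6387 listed genes, so the middle part carried the most abundant genes. Genes were taken to follow each other as their identifiers do, and no distance in bases was used.

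A minority of the abundant genes were neighbours. In 9 of the 85, or 10.6%, the next or the previous listed gene was also abundant, and these 9 held 3.64% ± 0.34 of all FPKM (SD, n = 3). They formed a run of 3 genes on chromosome 17 and a pair each on chromosomes 4, 5 and 8. Among the 66 genes whose lowest library lay at 500 to under 1000 FPKM, 0 were next to each other, and among the 850 genes at 100 to under 500 FPKM, 70 were, or 8.24%. A larger set has more chances of holding neighbours, so these shares are not held to the same number of genes. The 0 covers only pairs inside the 66. Manes.03G123700.v6.1, Manes.01G112600.v6.1 and Manes.01G175600.v6.1, picked after their values were seen, were each next to an abundant gene. Their lowest libraries were at 573, 831 and 951 FPKM, so they belonged to the 66. With the threshold lowered to 500 FPKM, 15 of 151 genes were neighbours, so the 0 does not show that neighbours ended at 1000 FPKM. Widening the distance to 5 places gave 11 abundant genes, and 20 places gave 17.

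The run on chromosome 17 consisted of Manes.17G066700.v6.1, Manes.17G066800.v6.1 and Manes.17G066900.v6.1. The middle gene was the highest in every library, at 2.69, 1.76 and 1.98 times the first gene in replicates 1, 2 and 3. It was also 3.04, 2.41 and 2.58 times the last gene, which had 3293, 4085 and 3736 FPKM in those libraries. The outer genes shared the same order of libraries, highest in replicate 2 and lowest in replicate 1, while the middle gene differed by only 1.04-fold.

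On chromosome 4, Manes.04G102800.v6.1 was followed by Manes.04G102900.v6.1, which had 2973, 1702 and 2072 FPKM in replicates 1, 2 and 3. Both were highest in replicate 1 and lowest in replicate 2. The gene after them, Manes.04G103000.v6.1, was below the threshold at 795, 456 and 583 FPKM in replicates 1, 2 and 3, again in that order of libraries. It was picked after its values were seen.

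The pair on chromosome 5 was close in level. Manes.05G081000.v6.1 had 3091, 2555 and 2213 FPKM in replicates 1, 2 and 3, and Manes.05G081100.v6.1 had 3033, 2895 and 2431 FPKM. Their means of 2620 and 2786 FPKM differed by less than the SD of either. On chromosome 8, Manes.08G171800.v6.1 had 2901, 2226 and 1657 FPKM in replicates 1, 2 and 3, and Manes.08G171900.v6.1 had 2098, 1854 and 1515 FPKM. All 4 genes of these pairs were highest in replicate 1 and lowest in replicate 3, an order found in 11 of the 85 genes. The order shared by the pair on chromosome 4 was the commonest one, found in 49 of the 85. Neighbours may be near-identical copies between which reads can be split, and without the gene sequences such sharing was not tested.

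**Figure D5:**
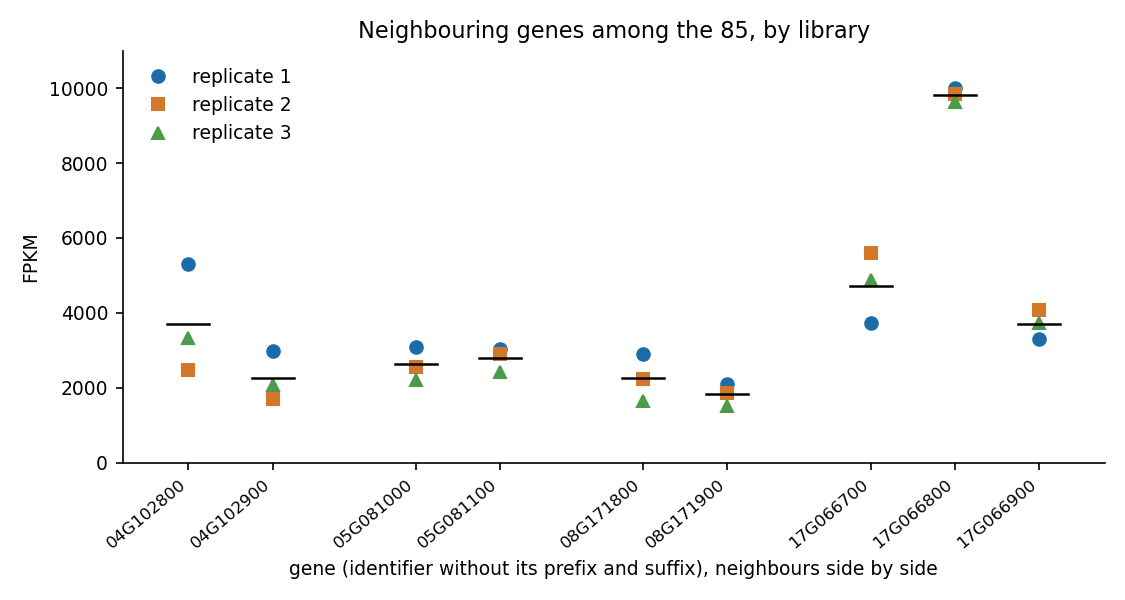
FPKM of the 9 abundant genes that lie next to another, grouped by run, with a symbol for each replicate and a bar at the mean. In the pairs on chromosomes 5 and 8 replicate 1 is highest and replicate 3 lowest for both genes, and in the run on chromosome 17 the middle gene is the highest in every library, at 9627 FPKM or more.

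Other abundant genes were close without being next to each other. On chromosome 15, Manes.15G183900.v6.1 and Manes.15G184200.v6.1 had 2 listed genes between them, and the first was 2.44, 2.43 and 2.27 times the second in replicates 1, 2 and 3. Manes.14G166500.v6.1 and Manes.14G167100.v6.1, with 5 genes between them, and Manes.15G166800.v6.1 and Manes.15G167500.v6.1, with 6, were the next closest. Of the last pair the second gene was 4.97, 7.02 and 6.66 times the first in replicates 1, 2 and 3. These pairs were picked after their places were seen.

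Most genes next to an abundant gene were not abundant themselves. The 154 next genes below the threshold had a median level of 10.7 FPKM, against 4.59 FPKM for the 31813 genes of numbered chromosomes that were not among the 85. Of the 154, 17 averaged 100 FPKM or more, or 11.04%, against 3.74% of the 31813. At the other end 18 of them were at 0 in every library, or 11.7%, against 15.7%. The 31813 include these 154, and the difference was not tested. Next to Manes.01G175700.v6.1 lay Manes.01G175600.v6.1, with 951, 1871 and 1701 FPKM in replicates 1, 2 and 3, which missed the threshold in replicate 1 alone. Manes.13G092200.v6.1, listed at 0 in 2 libraries, was next to Manes.13G092100.v6.1, which had 4407, 4356 and 4074 FPKM in replicates 1, 2 and 3. These 4 genes were picked after their values were seen.

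The 3 abundant S genes, whose identifiers hold no chromosome number, came from 1138 such genes, or 2.64 per 1000. Apart from Manes.S005600.v6.1 these were Manes.S080400.v6.1, with 2301, 1252 and 1408 FPKM in replicates 1, 2 and 3, and Manes.S012500.v6.1, with 1656, 1603 and 1388 FPKM. Together the 3 genes held 39.8% of the FPKM of all S genes, averaged over libraries, and 0.925% ± 0.26 of all FPKM (SD, n = 3). That spread followed Manes.S005600.v6.1, which alone held 0.579% ± 0.31 (SD, n = 3).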

How the data were processed

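Messenger RNA was measured in 3 replicate libraries of TME 7 leaves. Per the file headers, the authors deposited FPKM values in 1 table, each library in its own column. TopHat2 2.0.11 and Cufflinks 2.2.1 were used per the submitters' processing notes. Not given in the sources used here are the genome build, the settings and any scaling between libraries. All per-sample columns were used (0 left out). FPKM values are not counts, so depth is unknown and no count model, interval or detection floor is given. An exact 0 can be a failed estimate.

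Genes that every library listed at 1000 FPKM or more were taken. Ranks, shares of summed FPKM, SDs of log2 FPKM (no pseudocount) and places in identifier order were computed. A shared value is one of 100 FPKM or more held exactly by another gene of the library, and multiples of 2 to 5 were matched within a relative tolerance of 1e-05. With 1 group there was no test. The members, lists and descriptions were chosen with earlier results of these data known. Named genes were the 10 highest, the 5 of largest and of smallest log2 SD, the 5 nearest the threshold on each side, neighbours, S genes and genes with shared values; others are introduced as picked later. The planned lists by product name and cell type markers could not be filled, since 0 identifiers matched RefSeq genes of M.esculenta_v8 as written or without case, separators and suffix. The calculations were tested on simulated libraries. Alternatives were other thresholds, the mean in place of every library, 2 scalings, leaving out the highest gene or genes with shared values, log2(FPKM + 1), a wider distance between neighbours, and leaving out each replicate. Python 3.11.15, numpy 2.4.6, pandas 2.3.3 and matplotlib 3.10.9 were used.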

Additional observations from a re-analysis of the deposited data

How the results depend on the processing

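The number of abundant genes follows the threshold by construction. At 500 FPKM there were 151 genes with 35.9% of all FPKM, their 10 highest held 32.1% of it, 15 were neighbours, 5 were S genes, 1 had a shared value and 85 were highest in replicate 1. At 2000 FPKM there were 37 genes with 21.4% of all FPKM, their 10 highest held 53.8% of it, 3 differed over 2-fold, 5 were neighbours, 1 was an S gene and 26 were highest in replicate 1. With a mean of 1000 FPKM the share was 33.2%, 10 genes differed over 2-fold, of which 3 were listed at 0 in a library, and 3 had a shared value. Without the highest gene the share was 28.0% and that of the next 10 was 34.0% of it. Leaving out each replicate gave a median log2 SD of 0.088 to 0.22, lowest without replicate 1, and 2 to 5 genes over 2-fold: 2 without replicate 1, 2 without replicate 2 and 5 without replicate 3. The number over 2-fold cannot be higher for the same genes with fewer libraries. Leaving out each replicate also gave 0 to 1 genes with a shared value. The count of genes highest in replicate 1 was added after seeing the data. At 1000 FPKM it was 60 of 85, and 67 of 103 with the mean in place of every library. With either scaling, or with the highest gene or genes with shared values left out, it was 60 or 61. Without replicate 2 it was 64 of 88 and without replicate 3 it was 65 of 87. Leaving out a library cannot lower this count for the same genes, so the last 2 counts do not show that it is steady. Median-of-ratios and upper quartile scaling left the number of genes at 85. Among named genes, the mean of Manes.03G110500.v6.1 was 2240 FPKM without replicate 1, against 3990 FPKM with it, and that of Manes.S005600.v6.1 was 3705 FPKM without replicate 3, against 5416 FPKM with it. No paired analysis was possible because all libraries belong to 1 group. Depth is unknown and the values behind short genes could not be weighted by it.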
